A study of Mus musculus with 6 samples.

Results

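The 10 genes described here were Cic, Ahdc1, Elmsan1, Dido1, Ahctf1, Rbbp6, Eml4, Rttn, Atg16l1 and Mtr, out of 2652 genes in the deposited table. They belong to the genes named by the study in the overlap of its m6A map, its METTL3-bound transcripts and its list of proteins that differed in METTL3-deficient NK cells, without the kinases, chromodomain genes and Rbm genes of that overlap. Natural killer (NK) cells were sorted from the spleens of wild-type C57BL/6 mice, in which they had been expanded by a hydrodynamically injected plasmid that expresses IL-15. In METTL3-RIP (RNA immunoprecipitation sequencing), an anti-METTL3 antibody pulled the protein out of a cell lysate and the RNA that came with it was sequenced, in 3 libraries. A minor part of the lysate, taken before the antibody was added, gave 3 input libraries. How many mice or sorts stood behind a library is not given in the sources used here, so the spread between libraries may be technical. No mock immunoprecipitation was analysed here, and the labels and the methods name different suppliers of the antibody.

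N6-methyladenosine (m6A) is written on messenger RNA by a complex whose active enzyme is METTL3, with S-adenosylmethionine as methyl donor. The mark is placed in a short sequence context, of which GGACU is a common form, and lies mostly in long internal exons and near stop codons. Reader proteins that recognise the mark can change the splicing, export, decay and translation of the transcript, so a transcript can be marked without a change in its own level. In NK cells, IL-15 drives survival, growth and division through JAK-STAT, PI3K-AKT and MAPK signalling.

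The 10 proteins work in different parts of the cell. Cic is a high-mobility-group repressor of transcription whose action is relieved by ERK signalling, and Ahdc1 is a DNA-binding protein with AT-hook motifs. Elmsan1 is a scaffold of a histone deacetylase complex, and Dido1 has a plant homeodomain finger that reads methylated histone H3. Ahctf1 (ELYS) starts the assembly of nuclear pores on chromatin after mitosis, and Rbbp6 is a RING-type ubiquitin ligase that binds RB and p53 and takes part in the 3′-end processing of mRNA. Eml4 binds microtubules and Rttn (rotatin) is needed for the assembly of centrioles. Atg16l1 directs the lipidation of LC3 on the growing autophagosome, and Mtr is methionine synthase, which makes the methionine from which S-adenosylmethionine is formed.

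The table gives a level per gene and library and no position within a transcript, so the sequences of the genes were examined for what they share. GGACT, the DNA spelling of GGACU, was searched on the transcript strand of the representative transcript (the one with the longest complete coding sequence in GENCODE M21, GRCm38). In 5 of the 10 genes a GGACT lay within 250 bases of the end of the stop codon on either side. These windows of 25 bases are shown because they hold the m6A context nearest to the region where the mark is most frequent. Capitals mark GGACT.
Cic: ctccaggctcGGACTctggcactgc
Ahdc1: ctgtgccgagGGACTcgctgctgcc
Elmsan1: agggtcacttGGACTttgctctgca
Dido1: ataatattctGGACTtcaggaatta
Ahctf1: aaaagaagcaGGACTgtgaagacaa

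The window of Cic lies at chr7:25293390-25293414 (plus strand), that of Ahdc1 at chr4:133066071-133066095 (plus strand) and that of Ahctf1 at chr1:179747190-179747214 (minus strand), all in coding sequence before the stop codon. Those of Elmsan1 at chr12:84152306-84152330 and of Dido1 at chr2:180659147-180659171, both on the minus strand, lie in the 3′ UTR. Their centres were 133 bases (Cic), 151 bases (Ahdc1) and 218 bases (Ahctf1) before the end of the stop codon, and 84 bases (Elmsan1) and 180 bases (Dido1) after it. Such a match was not particular to the 10 genes. The 500-base window around the stop codon held a GGACT in 5 of the 10 transcripts, 48.4% of the transcripts of 1646 listed protein-coding genes and 44.8% of those of 16052 protein-coding genes that have such a window. Over whole transcripts, the 10 genes had a median of 1.21 GGACT per kilobase, from 0.550 in Rttn to 1.97 in Ahdc1, against a median of 1.13 in listed genes and 1.02 in all protein-coding genes. A match is a sequence and not a measured m6A site.

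Length set these transcripts apart from the typical gene more than motif density did. Representative transcripts had a median of 7214 nt, from 3102 nt in Atg16l1 to 8723 nt in Dido1. The median was 4729 nt in 1878 listed protein-coding genes and 2570 nt in all 21597 protein-coding genes with a complete transcript, so 9 of the 10 were longer than the typical listed gene. Coding sequence made up most of this length, with a median of 5079 nt against 2768 nt in listed genes. The 3′ UTR, with a median of 1271 nt, was close to the 1258 nt of listed genes.

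**Figure D1:**
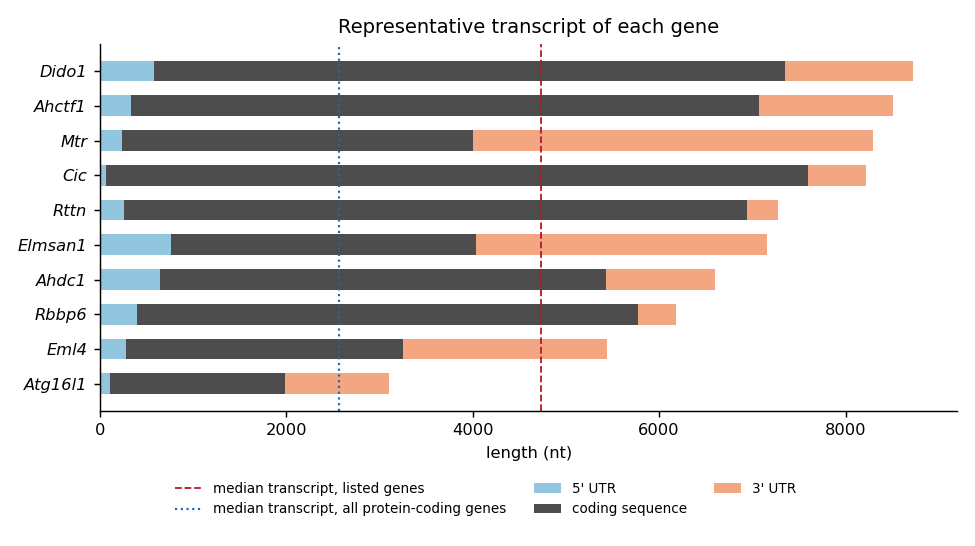
Length in nt of the 5′ UTR, coding sequence and 3′ UTR of the representative transcript of each of the 10 genes, as stacked bars, with the median transcript length of listed genes (4729 nt, dashed) and of all protein-coding genes (2570 nt, dotted). All but Atg16l1 (3102 nt) exceed the dashed line, and coding sequence is the longest segment in all but Mtr, where the 3′ UTR is longer.

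Exon structure varied widely among the 10 genes. Ahdc1, with 7 exons, carried a longest exon of 4902 nt, and Dido1 (16 exons) one of 4620 nt. In Mtr (33 exons) the longest exon had 4380 nt and in Elmsan1 (13 exons) 3284 nt. At the other end stood Rttn, whose coding sequence of 6681 nt was cut into 49 exons of at most 418 nt. The longest exon had a median of 2726 nt in the 10 genes, 1836 nt in listed genes and 1207 nt in all protein-coding genes. First and last exons were included, so a longest exon need not be an internal one. In Mtr and Elmsan1 the 3′ UTR had 4293 and 3124 nt, close to the length of the longest exon.

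The METTL3-RIP libraries held 9401509 to 11809744 reads and the input libraries 14710607 to 15992386, as recovered from the deposited values. Values are RPKM, reads per kilobase of exon scaled to the total of the library, so that levels of different genes can be compared per length. Mettl3 itself had 12.9, 9.79 and 5.82 RPKM in METTL3-RIP replicates 1, 2 and 3 against 0.475, 0.500 and 0.518 RPKM in the same-numbered input libraries. None of 9 NK cell genes (among them Ncr1, Klrb1c, Gzmb and Prf1) and none of 16 genes of T cells, B cells, myeloid cells or erythroid cells is listed, so the label of the cells could not be checked here.

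No listed gene with reads in input had a ratio of METTL3-RIP to input under 9.14, so the table is a selection of genes that were higher in METTL3-RIP, and the 10 genes were chosen from it through this contrast. Their difference between METTL3-RIP and input is therefore a description, and no test of it is read as evidence. In all 10 genes each METTL3-RIP value exceeded each input value, as in 99.8% of all listed genes. In a limma fit over the whole table, the share of listed genes that passed an adjusted p-value of 0.05 was 99.9%, and the 10 genes were among them. Both outcomes were fixed by the choice of genes and say nothing about the 10. The smallest gap was in Rbbp6, where the lowest METTL3-RIP value was 7.27 times the highest input value, and the widest in Cic, where it was 19.6 times.

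**Figure D2:**
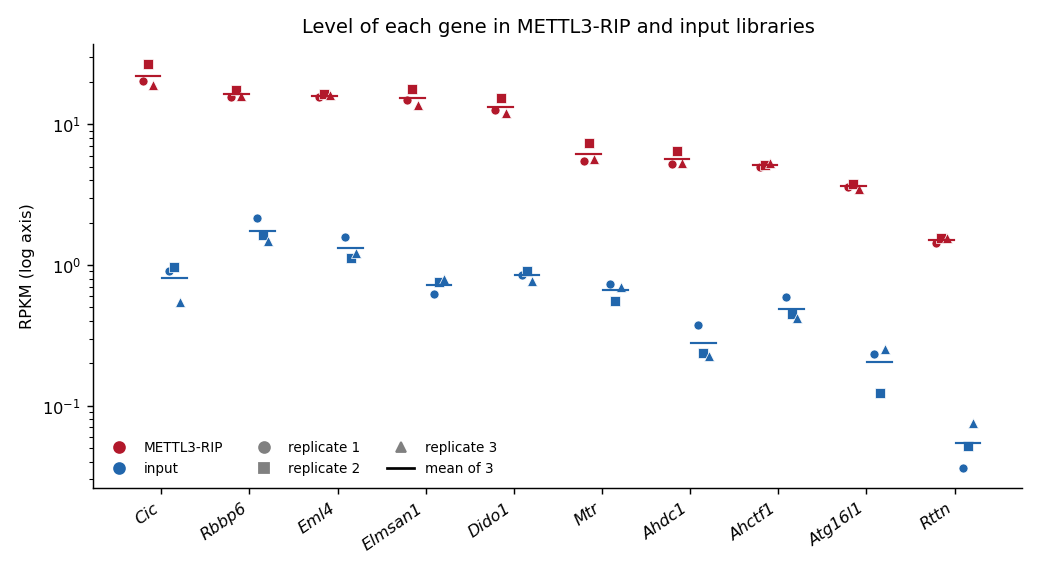
RPKM of each gene (log axis) in 3 METTL3-RIP libraries (red) and 3 input libraries (blue), with a symbol for each replicate number and a bar for the mean of 3 libraries. The groups do not overlap in any gene, and levels fall from 22.0 RPKM (Cic) to 1.52 RPKM (Rttn) in METTL3-RIP.

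Cic was the most abundant of the 10 transcripts in METTL3-RIP. The gene spans chromosome 7 from 25267704 to 25294159 on the plus strand (GRCm38). Its level was 20.2, 26.8 and 18.9 RPKM in METTL3-RIP replicates 1, 2 and 3 and 0.912, 0.966 and 0.548 RPKM in input. Replicate 2 stood above the others in METTL3-RIP, and replicate 3 was the low library of the input group. Mean levels were 22.0 ± 4.21 and 0.809 ± 0.227 RPKM (SD, n = 3 each), a ratio of 27.2. These values rest on 1958, 2650 and 2300 reads in METTL3-RIP and on 143, 159 and 83 reads in input, in the order of the replicates. The METTL3-RIP spread of Cic, a coefficient of variation of 19.2%, was the widest of the 10 genes and 9.19 times what counting error alone gives.

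Ahdc1 (chromosome 4, 133011260 to 133078110, plus strand) was a transcript of middle level. It had 5.24, 6.46 and 5.31 RPKM in METTL3-RIP and 0.373, 0.237 and 0.225 RPKM in input. Its means of 5.67 ± 0.681 and 0.279 ± 0.0823 RPKM (SD, n = 3 each) gave a ratio of 20.4. Input replicate 1 was the high library of its group, and the same-numbered ratio was lowest there, at 14 against 27.2 and 23.6. Input reads were 48, 32 and 28.

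Elmsan1 (chromosome 12, 84149176 to 84218881, minus strand) stood at 14.9, 17.7 and 13.8 RPKM in METTL3-RIP, with 0.621, 0.756 and 0.795 RPKM in input. The mean was 15.5 ± 2.05 RPKM against 0.724 ± 0.0911 RPKM (SD, n = 3 each), and the ratio was 21.3. As in Cic, METTL3-RIP replicate 2 was highest and replicate 3 lowest. In input the order differed from that of Cic, with replicate 1 lowest. METTL3-RIP replicates gave 1064, 1297 and 1237 reads of Elmsan1, and input replicates 72, 92 and 89.

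Dido1 (chromosome 2, 180657964 to 180709999, minus strand) had the steadiest input level of the 10 genes. Input values were 0.854, 0.907 and 0.771 RPKM, a coefficient of variation of 8.09%, which is 1.06 times that of counting error. METTL3-RIP values were 12.7, 15.4 and 12 RPKM, again highest in replicate 2. Means of 13.4 ± 1.79 and 0.844 ± 0.0683 RPKM (SD, n = 3 each) gave a ratio of 15.8. The ratios of the same-numbered libraries, 14.9, 17.0 and 15.5, lay closer together than in any other of the 10 genes. This closeness depends on the pairing by number, which the deviations of the libraries cannot decide.

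Ahctf1, the pore assembly factor, differed from the 4 genes above in that METTL3-RIP replicate 2 was not its highest library. Its values were 5.01, 5.12 and 5.36 RPKM in METTL3-RIP and 0.591, 0.447 and 0.423 RPKM in input. Mean levels were 5.16 ± 0.176 and 0.487 ± 0.0909 RPKM (SD, n = 3 each), with a ratio of 10.6. Its coordinates are 179744894 to 179803680 on chromosome 1 (minus strand). Exons of Kif28 on the same strand cover 1.02% of its exon bases, and exons of a gene on the opposite strand cover 2.02%. Scaled to the library totals, its METTL3-RIP values, from 712, 744 and 956 reads, differed by no more than counting error gives.

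Rbbp6 (chromosome 7, 122965686 to 123002557, plus strand) was the most abundant of the 10 in input. Input levels were 2.14, 1.63 and 1.49 RPKM and METTL3-RIP levels 15.6, 17.4 and 15.9 RPKM in replicates 1, 2 and 3. With means of 1.76 ± 0.343 and 16.3 ± 0.978 RPKM (SD, n = 3 each), the ratio was 9.30. Input replicate 1 lay above the other input libraries. Rbbp6 thus lay just inside the lower end of the ratios of the table.

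Eml4 (chromosome 17, 83350931 to 83480361, plus strand) was nearly level across the METTL3-RIP libraries, at 15.6, 16.3 and 16.1 RPKM. The coefficient of variation of 2.40% was the smallest of the 10 genes. It was under that of counting error by the recovered reads, which are less certain for this gene. A larger true read number would lower the counting error. In input it had 1.59, 1.13 and 1.22 RPKM, and replicate 1 was again the high library. Its means were 16 ± 0.383 and 1.31 ± 0.246 RPKM (SD, n = 3 each), with a ratio of 12.2.

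Rttn (chromosome 18, 88971790 to 89131016, plus strand) was the scarcest of the 10 transcripts in both groups. METTL3-RIP values were 1.43, 1.56 and 1.56 RPKM and input values 0.0361, 0.0516 and 0.0748 RPKM. The means of 1.52 ± 0.0730 and 0.0542 ± 0.0195 RPKM (SD, n = 3 each) gave a ratio of 28.0, the largest of the 10. That ratio rests on 4, 6 and 8 input reads, by the shortest exon length that gives whole reads for this gene, and the 95% exact Poisson interval of their sum of 18 runs from 10.7 to 28.4 and covers counting error only. In the same-numbered libraries the ratio was 39.7, 30.2 and 20.9. By the recovered reads, which are less certain for this gene, the spread of its input level was no wider than counting error gives. A larger true read number would lower that counting error.

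Atg16l1 (chromosome 1, 87755870 to 87792428, plus strand) had 3.61, 3.79 and 3.47 RPKM in METTL3-RIP and 0.232, 0.123 and 0.254 RPKM in input. Input replicate 2, with 19 reads against 34 and 36, was its low library. Mean levels were 3.63 ± 0.160 and 0.203 ± 0.0700 RPKM (SD, n = 3 each), a ratio of 17.8. Same-numbered ratios of 15.6, 30.7 and 13.7 had the widest spread of the 10 genes on the log2 scale (SD 0.63), a spread that also depends on the pairing by number.

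Mtr (chromosome 13, 12182712 to 12258113, minus strand) had the smallest ratio of the 10 genes, 9.29, next to Rbbp6. Its METTL3-RIP level was 5.53, 7.31 and 5.63 RPKM, with replicate 2 clearly above the others. Input values were 0.733, 0.558 and 0.698 RPKM, and here replicate 2 was lowest. Mean levels were 6.16 ± 1.0 and 0.663 ± 0.0924 RPKM (SD, n = 3 each). The same-numbered ratio was thus 13.1 in replicate 2 against 7.55 and 8.07 in replicates 1 and 3.

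Ordered by METTL3-RIP level, the 10 transcripts fell into steps. Cic stood alone at the top, with its lowest library above the highest library of the next gene. Rbbp6, Eml4, Elmsan1 and Dido1 followed at means of 16.3 to 13.4 RPKM, and neighbours in this order overlapped in their ranges. A gap separated them from Mtr, Ahdc1 and Ahctf1, at means of 6.16 to 5.16 RPKM, whose neighbours overlapped as well. Atg16l1 and Rttn each stood apart below. In input the order was another one, led by Rbbp6 and Eml4, with Dido1, Cic, Elmsan1, Mtr and Ahctf1 as a run of overlapping neighbours from 0.844 to 0.487 RPKM. In bulk lysate, a transcript present in fewer cells and one at fewer copies per cell cannot be told apart. As a group, the 10 genes were well expressed for the table: 9 of 10 were above the median of listed genes in METTL3-RIP (3.04 RPKM) and in input (0.190 RPKM), with Rttn below in both. Together they held 0.102% ± 0.0107 (SD, n = 3) of the reads of a METTL3-RIP library and 0.00697% ± 0.000886 (SD, n = 3) of the reads of an input library, although the read numbers of Rbbp6, Eml4, Rttn and Mtr are less certain than those of the other 6 genes.

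**Figure D3:**
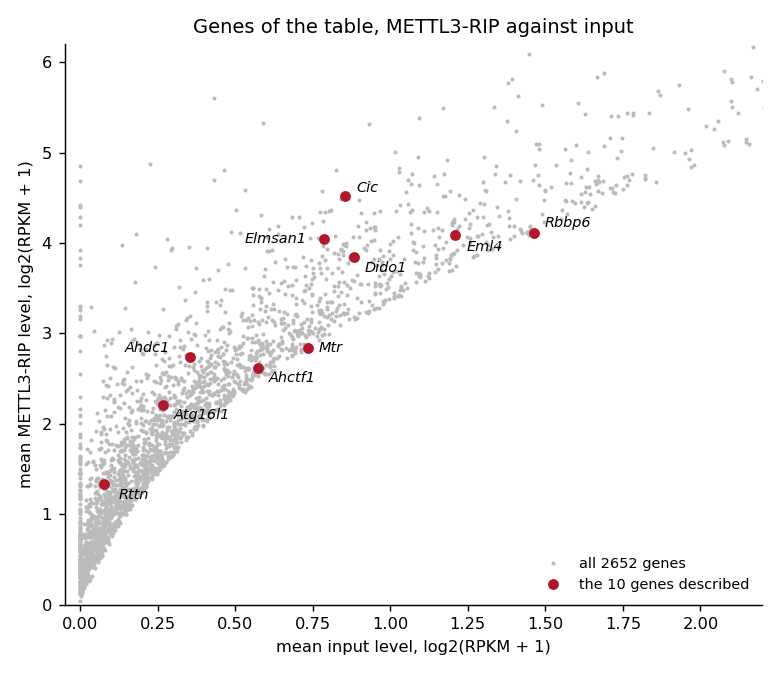
Mean METTL3-RIP level against mean input level, both as log2(RPKM + 1), for the listed genes (grey, 77 genes beyond the axes) and the 10 genes described (red). Rbbp6 and Mtr lie on the lower edge of the cloud, where the ratio is near its minimum of 9.14, and Cic and Rttn lie well inside it.

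The order by ratio differed again. Ratios of mean RPKM ranged from 9.29 (Mtr) to 28.0 (Rttn), with a median of 16.8, against a median of 14.4 in the 2487 listed genes with reads in input. Of the 10 genes, 6 were above that median. Rttn and Cic ranked 323 and 346 from the top, whereas Rbbp6 and Mtr ranked 2464 and 2466. On the log2 scale the means of the 3 same-numbered ratios were 4.87 ± 0.47 for Rttn, 4.79 ± 0.32 for Cic, 4.42 ± 0.26 for Elmsan1, 4.38 ± 0.50 for Ahdc1, 4.23 ± 0.63 for Atg16l1 and 3.98 ± 0.09 for Dido1 (SD, n = 3 each). Below them came Eml4 at 3.62 ± 0.30, Ahctf1 at 3.42 ± 0.30, Rbbp6 at 3.23 ± 0.32 and Mtr at 3.21 ± 0.43 (SD, n = 3 each). All neighbours in this order overlapped in their ranges except Dido1 and Eml4. Over genes, same-numbered libraries did not deviate together (correlations of -0.019, -0.019 and 0.078). These correlations cannot decide whether same-numbered libraries share a lysate, because the scatter of low input levels can hide a shared deviation. The SDs and ranges, and the gap between Dido1 and Eml4, thus hold only for the pairing by number.

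**Figure D4:**
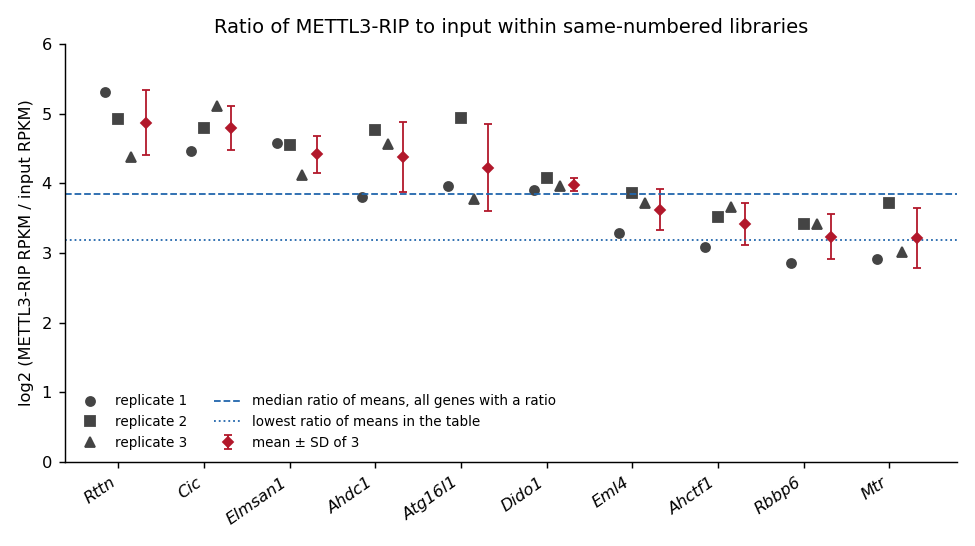
Log2 ratio of METTL3-RIP to input RPKM in each of the 3 same-numbered pairs of libraries (black symbols) and the mean ± SD of the 3 (red), ordered by mean, with the median (14.4-fold, dashed) and the minimum (9.14-fold, dotted) of the ratio of means over listed genes. In this pairing by number, which the deviations of the libraries cannot decide, Dido1 shows the tightest set of ratios and Atg16l1 the widest. The values of Eml4, Ahctf1, Rbbp6 and Mtr lie below those of Dido1 in the same pairing.

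On the log2(RPKM + 1) scale of the limma fit, which understates the change of scarce transcripts, the order turned for Rttn. There its log2 fold change was the smallest of the 10, 1.26 (SE 0.07), and that of Cic the largest, 3.66 (SE 0.16). The 10 genes had a median log2 fold change of 2.52, and all listed genes one of 1.72. Because every listed gene is higher in METTL3-RIP, levels were also set against the median of listed genes in each library. With this centring of the log2 values, 1044 genes were higher and 1119 lower past the threshold, in place of 2650 and 0, and of the 10 genes 8 were higher, Rttn was lower and Atg16l1 was not past it. The median of all genes then moved from 1.72 to -0.036. Centring shifts all genes of a library alike, so the distance of 0.79 between the median of the 10 genes and that of all genes is the same by construction. That distance depended on the pseudocount, and was 0.35 with a pseudocount of 0.1, where the median of all genes was 3.23. Quantile normalization gave 170 higher and 152 lower genes, and a distance of 0.18.

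Taken as plain ratios to the library medians, without a pseudocount, the 10 genes split in another way. Cic was at 6.46, 8.38 and 6.89 times the median in METTL3-RIP and at 4.51, 4.98 and 3.34 times the median in input, without overlap. Rttn was at 0.458, 0.488 and 0.569 times the median in METTL3-RIP against 0.179, 0.266 and 0.456 in input, where the highest input value, from 8 reads, came within 1 read of the lowest METTL3-RIP value. In 16.4% of all listed genes the relative METTL3-RIP values all lay above the input values, and 2 of the 10 genes were among them. Lower in METTL3-RIP without overlap were Ahctf1, Rbbp6 and Mtr, 3 of the 10 genes, against 22.5% of listed genes. Rbbp6 went from 10.6, 8.42 and 9.09 times the median in input to 4.98, 5.46 and 5.81 times in METTL3-RIP. Mtr was at 3.62, 2.88 and 4.25 times the median in input and at 1.77, 2.29 and 2.05 times in METTL3-RIP. The groups overlapped on this scale in Ahdc1, Elmsan1, Dido1, Eml4 and Atg16l1. The direction relative to other genes turned with the scale for Rttn, which was lower on centred log2(RPKM + 1) values (-0.50) and higher as a plain ratio, and for Ahctf1, Rbbp6 and Mtr, which were higher on the first and lower on the second. The means of Eml4 (5.31 times the median in METTL3-RIP and 7.05 in input) and Dido1 (4.41 and 4.53 times) turned in the same way, although their groups overlapped.

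Replicates did not contribute evenly. METTL3-RIP replicate 2 was the highest of its group in 8 of the 10 genes, where it was highest in 53.9% of listed genes, and Ahctf1 and Rttn were the exceptions. Input replicate 1 was highest in 5 of the 10 genes, namely Ahdc1, Ahctf1, Rbbp6, Eml4 and Mtr, and in 47.7% of 2252 listed genes with 3 different input values. The coefficient of variation of the 10 genes had a median of 9.0% in METTL3-RIP and 19.1% in input, against 15.5% and 33.3% in listed genes. This comparison was not matched for read number, and the 10 genes had higher levels and longer transcripts than the typical listed gene. By the recovered reads, the METTL3-RIP spread exceeded counting error by more than a factor of 2 in Cic, Ahdc1, Elmsan1, Dido1, Rbbp6 and Mtr. In input this held for Cic and Rbbp6. The share of listed genes past this factor was not computed, and counting error is smaller in genes with more reads.

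Partners of the 10 proteins were then looked up in the table from lists of genes known to act with them. Of 107 such genes 22 (20.6%) were listed. All 22 were higher in METTL3-RIP, as the table holds such genes, so only their levels are described. Among all protein-coding genes 8.67% were listed. These shares are not matched for level or length, and genes outside the table have no value here.

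For the transcriptional repressor Cic, its partners Atxn1 and Atxn1l and its target Spred1, an ERK pathway inhibitor, were listed, out of 10 genes. Atxn1l had a mean of 6.26 ± 0.0490 RPKM in METTL3-RIP against 0.433 ± 0.0826 RPKM in input (SD, n = 3 each), a ratio of 14.4, and Atxn1 had a ratio of 10.9. The feedback regulators Dusp4, Dusp6 and Spry4 and the Ets factors Etv1, Etv4 and Etv5, which Cic represses, were not listed. For the deacetylase complex of Elmsan1, 1 of 5 genes was listed, the related scaffold Trerf1, with a ratio of 9.62, and neither Hdac1 nor Hdac2 was. Of 5 genes that share with Dido1 a SPOC domain, Spen and Rbm15b were listed. Spen, a corepressor, had 25.4, 31.1 and 24.4 RPKM in METTL3-RIP and 0.867, 0.834 and 0.608 RPKM in input. Its ratio of 35 was above that of each of the 10 genes, and replicate 2 was high as it was in Cic and Dido1.

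Of 9 nucleoporins of the complex that Ahctf1 recruits, Nup133 alone was listed, with a mean of 1.83 ± 0.174 RPKM against 0.175 ± 0.0454 RPKM (SD, n = 3 each). For Rbbp6, 3 of 21 genes were listed, the 3′-end processing factors Cpsf1 (ratio 17.6) and Sympk (12) and its degradation target Zbtb38 (9.71). Eml3 and Nek9 were listed of 8 relatives and partners of Eml4, and Eml3 matched Eml4 in level, with means of 16.6 ± 1.51 and 1.24 ± 0.243 RPKM (SD, n = 3 each) in METTL3-RIP and input. Centriole genes were listed in 4 of 11 cases, namely Cep152, Cep192, Cntrob and Stil, with ratios of up to 16.7 (Cep152). All 4 had higher METTL3-RIP levels than Rttn, from 2.55 RPKM in Stil to 8.53 RPKM in Cep152.

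Autophagy genes were listed in 5 of 21 cases. These were Ulk1, which starts autophagosome formation, the lipid kinase subunit Pik3r4, the lipid scramblase Atg9a, Wipi2, which brings Atg16l1 to the membrane, and Tecpr1, which can replace Atg16l1 in binding the Atg5-Atg12 conjugate. Tecpr1 had the highest level of the 5, 10.1 ± 0.665 RPKM in METTL3-RIP against 0.764 ± 0.197 RPKM in input (SD, n = 3 each). Ulk1 had the largest ratio, 24.7, from 3.26, 2.28 and 2.13 RPKM against 0.162, 0.106 and 0.0419 RPKM. Atg5, Atg12 and the genes of LC3 were not listed. Mat2a, a subunit of S-adenosylmethionine synthetase, was not listed.

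The listed genes closest to the 10 in pattern were found by Euclidean distance of log2(RPKM + 1) over the 6 libraries. Nearest to the mean profile of the 10 genes were Usp24 (distance 0.16), Ash1l (0.18) and Iqsec1 (0.18). Bcl9l was nearest to Cic (distance 0.12), with 18.9, 26.9 and 19.5 RPKM in METTL3-RIP and 0.958, 0.912 and 0.582 RPKM in input, so that it shared the high METTL3-RIP replicate 2 and the low input replicate 3. Nearest to Rttn was Gm16536 (distance 0.07), at 1.47, 1.57 and 1.60 RPKM against 0, 0.0787 and 0.0856 RPKM.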

How the data were processed

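The authors trimmed reads with Trimmomatic and mapped them to GRCm38 with STAR 2.5.3a at default parameters (submitters' processing notes and methods). Not given in the sources used here are the counter, its annotation and whether it used strand. The authors deposited a gene table with a value per library, and its unit was inferred from the values as RPKM. The table also holds the authors' log2 fold changes and p-values, deposited beside the RPKM values, which were not used.

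Reads were recovered by multiplying RPKM by the exon-union length in GENCODE M21 and by the library total that made 82.8% to 84.4% of the values whole within 0.01. For Rbbp6, Eml4, Rttn and Mtr that length gave no whole reads, and the shortest length that did (12801, 5445, 7268 and 4482 nt) was taken. Read numbers of these 4 genes are less certain and may be a fraction of the true ones. Whether reads or read pairs were counted is not stated. Amplified reads are not independent molecules, so counting error covers counting only.

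The design named limma for RPKM: log2(RPKM + 1), lmFit and eBayes with trend (limma 3.58.1, R 4.3.3), two-sided, Benjamini-Hochberg over all 2652 genes, threshold 0.05, tested on simulated data. Libraries were grouped by their titles. Exact permutation of 3 against 3 libraries cannot give a two-sided p below 0.1 and was not used. Members, lists and tests were chosen with earlier results of these data known. Genes named are the 10 members, listed partners (an item among them is not reported here), Mettl3 and the nearest genes by profile (3 to the mean, 1 each to the highest and lowest member). Representative transcripts have the longest complete coding sequence. At most 6.36% of the exonic 31-mers of a member (Rttn) occur elsewhere in the genome.

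Same replicate numbers were checked as pairs: over genes, the correlation between the deviations of same-numbered libraries was -0.019, -0.019 and 0.078. With the scatter of low input levels, this check cannot decide whether the libraries are pairs. Alternatives were other pseudocounts, a filter, median centring, quantile normalization, a replicate block and leaving out each library.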

Additional observations from a re-analysis of the deposited data

How the results depend on the processing

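Nearly all listed genes pass the threshold because the table holds genes higher in METTL3-RIP, so counts of calls do not show how stable the 10 genes are. Without each library in turn, 2629 to 2644 of 2652 genes were past the threshold, the 10 genes among them, and their median log2 fold change was 2.46 to 2.59. With the replicate number as a block, 2643 genes and all 10 were past it and the median was 2.52. The deviations of the libraries cannot decide whether the numbers pair them, so this fit is only an alternative. The median of the 10 genes was 3.58 at a pseudocount of 0.1 and 1.33 at a pseudocount of 5, against 3.23 and 0.62 over all genes, so that their distance fell from 0.79 to 0.35 and 0.71. A mean level of at least 1 RPKM left 1671 genes past the threshold and 9 of the 10, as Rttn was filtered out, and the distance was 0.39. Under median centring the median of the 10 genes was 0.76, 8 were higher, Atg16l1 fell short and Rttn reversed to -0.50. Quantile normalization, which gives the 6 libraries the same distribution, left 322 genes and 2 of the 10 past the threshold, with a median of 0.075. Of the 2, Cic was higher and 1 gene was lower. Ahctf1 (-0.25), Rbbp6 (-0.46), Eml4 (-0.17) and Mtr (-0.41) then reversed in sign, but only 1 of them was past the threshold. Directions relative to the other genes thus depend on the scaling. By the recovered reads, which may be a fraction of the true ones, Rttn had 4 to 8 input reads per library. At that depth, differences in its input level would not be detectable. The genes outside the table were not analysed here.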
